A study of Rattus norvegicus with 10 samples.

Results

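The mitochondrial solute carriers of the Slc25 family were examined in liver from iron-deficient and from pair-fed control rats. Members were the genes whose symbol on the array platform begins with Slc25a, without Slc25a20 and Slc25a37, and the uncoupling proteins Ucp1, Ucp2 and Ucp3. Only probe sets paired with exactly 1 gene were taken, and the probe set with the highest mean over all arrays stood for each gene. This gave 41 genes, covered by 60 probe sets, out of 14217 genes with such a probe set.

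Liver RNA of 10 male Sprague-Dawley rats, 5 weeks of age by the labels, was hybridised to 1 Affymetrix rat genome array each. The 5 rats of the iron-deficient group had eaten a diet with about 3 ppm iron, made by leaving out ferric citrate, for 3 days. The 5 rats of the pair-fed group had received the control diet with 48 ppm iron in matched amounts, and all livers were taken 1.5 h after the start of a meal. The replicates are separate rats, and the values are robust multiarray average (RMA) signals on the log2 scale, so that a difference of 1 is a doubling.

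Members of this family sit mainly in the inner mitochondrial membrane and exchange nucleotides, phosphate, carboxylates, amino acids and cofactors between the matrix and the cytosol. In the liver they link the cytosolic steps of fatty acid synthesis, gluconeogenesis and the urea cycle to the steps inside the organelle. The uncoupling proteins belong to the same family, and Ucp1 lets protons return to the matrix in brown fat, which releases heat. Some carriers serve iron metabolism directly: mitoferrins bring iron to the matrix, where heme and iron-sulfur clusters are made.

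Array medians lay between 6.19 and 6.22, and 9 of 9 measured hepatocyte marker genes were not called different between the diets. In 1 of them, Ttr, the groups did not overlap, as in 1.62% of all genes. It was at 14.78 to 14.84 in the iron-deficient and 14.73 to 14.77 in the pair-fed rats. Iron-deficient replicate 1 stood farthest from the other arrays, with a mean correlation of 0.9915 against 0.9935 to 0.9941 for the other 9. It also had the highest 3' minus 5' difference of the control probe sets for GAPDH (0.36 log2 units) and beta-actin (1.74). Red cell precursor markers differed between the groups, with 5 of 11 called down and a summed signal of 9.37 to 10.10 in the iron-deficient and 9.72 to 10.80 in the pair-fed rats. In whole liver, fewer cells of a type and less RNA per cell cannot be told apart.

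The median of the carrier family lay near that of all genes, and 1 member, Slc25a30, was up-regulated in the rank products test at a false discovery rate under 0.05. None of the 41 was down-regulated, and 40 did not pass. Over 1 probe set per gene, 0.324% of the genes were up-regulated and 0.76% down-regulated, and over all 31042 probe sets the shares were 0.303% and 0.573%. Of the members 22 were higher and 19 lower in the iron-deficient group, with differences from -0.18 to 0.39 and a median of 0.02, against a median of -0.01 over all genes. The median size of a difference without its sign was 0.07 in the family and 0.07 over all genes.

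With limma, where a difference is set against the variation among rats, 0 members had an adjusted p under 0.05, as had 0 of all probe sets, and the lowest adjusted p of a member was 0.601. At an unadjusted p under 0.05 it had 3 members, all higher in the iron-deficient group: Slc25a4, Slc25a1 and Slc25a23. That is 7.32% of the members, beside 2.9% of all genes in the higher direction, and 0 members in the lower direction beside 4.94%. The rule left out Slc25a20 and Slc25a37, which were lower at an unadjusted limma p of 0.0254 and 0.00355. The exact permutation test had 5 members at an unadjusted p under 0.05, 3 higher and 2 lower, beside 3.01% and 5.3% of all genes. The groups did not overlap in 0 members, and in 1.62% of all genes.

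For most members the interval of the difference was narrow at the probe set that stood for the gene. In 35 of 41 the 95% interval of the log2 difference lay within 0.5 on either side of 0, and in 40 of 41 within 1, Slc25a30 being the exception. The 6 with intervals beyond 0.5 were Slc25a1, Slc25a4, Slc25a21, Slc25a23, Slc25a25 and Slc25a30. Among the 35 were the 8 dim members, with means below the median probe set. They were Slc25a18, Slc25a27, Slc25a31, Slc25a34, Slc25a35, Slc25a41, Slc25a53 and Ucp1, and their intervals describe the array signal only. Some further probe sets had wider intervals, among them 1393342_at of Slc25a15 (-0.40 to 0.94) and 1382760_at of Slc25a32 (-0.64 to 0.12).

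**Figure D1:**
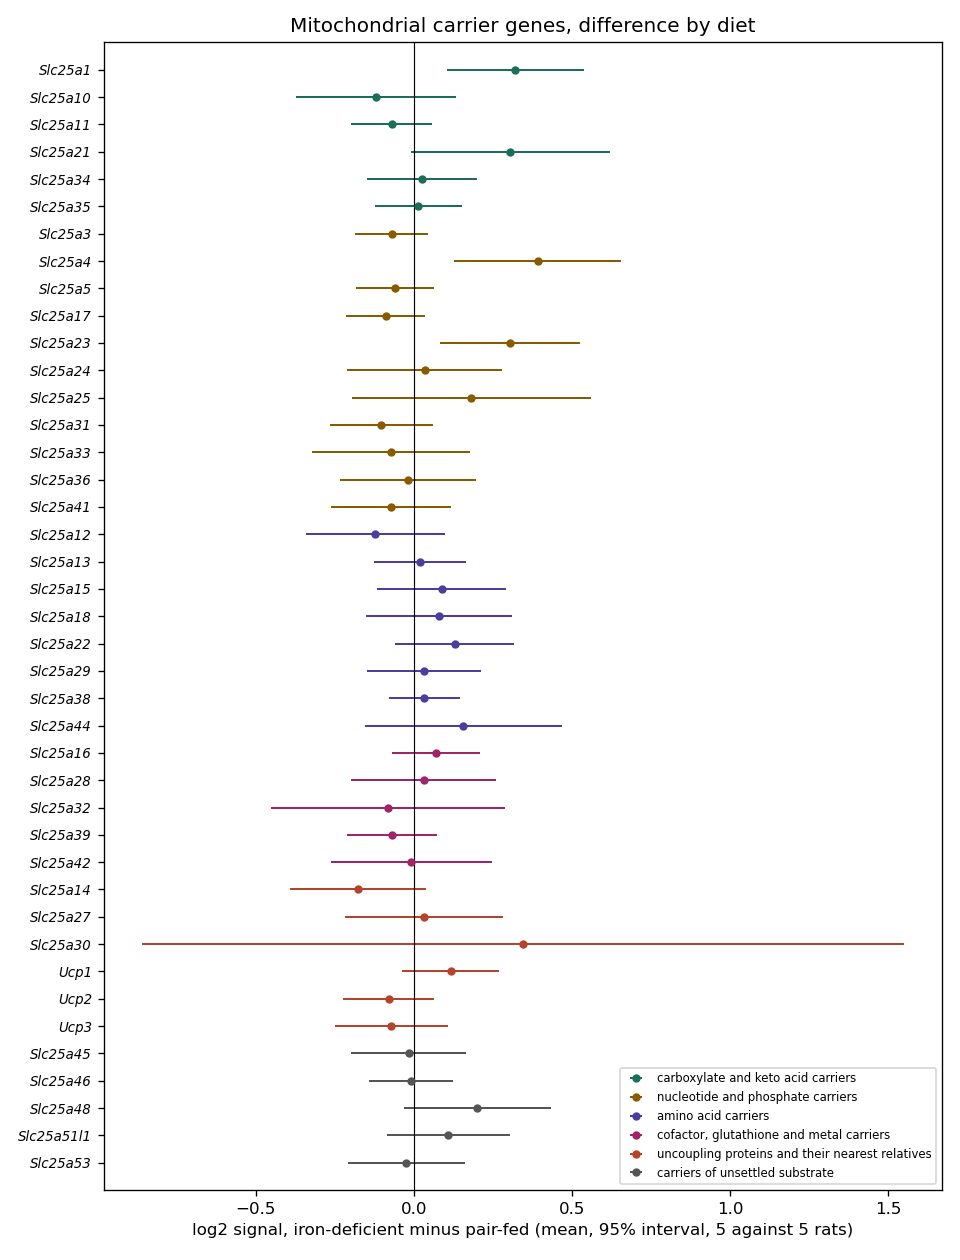
Difference of the log2 signal, iron-deficient minus pair-fed, for each of the 41 carrier genes (rows), as the mean with its 95% interval from limma over 5 against 5 rats, coloured by the role of the carrier. The intervals of 35 genes lie within 0.5 of 0, while that of Slc25a30 runs from -0.86 to 1.55.

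Among the uncoupling proteins and their nearest relatives, Slc25a30, also called kidney mitochondrial carrier protein, was up-regulated at both of its probe sets. At the brighter one (1390416_at) the iron-deficient rats 1 to 5 had log2 signals of 10.97, 11.42, 9.97, 10.46 and 10.08, and the pair-fed rats 1 to 5 had 8.63, 9.95, 12.06, 9.27 and 11.26. The highest and the lowest of all 10 values both belonged to pair-fed rats, replicates 3 and 1, and the iron-deficient rats lay between them. All 5 iron-deficient rats were above the median of the pair-fed group, the lowest of them by a narrow margin (9.97 against 9.95).

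The iron-deficient mean was 10.58 ± 0.61 (SD, n = 5) and the pair-fed mean 10.23 ± 1.41 (SD, n = 5), a difference of 0.35 (SE 0.555, 95% interval -0.86 to 1.55). The rank products gave a false discovery rate of 0.0296, while limma gave an adjusted p of 0.930. The exact permutation test, 2-sided, gave p = 0.603. At the other probe set (1381973_at) the iron-deficient rats had 9.68, 9.72, 8.23, 8.71 and 8.43 and the pair-fed rats 6.58, 8.23, 10.58, 7.36 and 9.77. The same pair of controls was highest and lowest there. The difference was 0.45 (SE 0.648), with a false discovery rate of 0.0139 from the rank products and an adjusted p of 0.920 from limma. Without pair-fed replicate 1 the difference of the brighter probe set was -0.06, and without pair-fed replicate 3 it was 0.80. Dropping 1 array at a time, Slc25a30 passed 2 times in 10, without pair-fed replicate 3 or 5, and it did not pass with the rank sum.

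The probe sets of Slc25a30 followed each other across the rats. Over the 10 rats Pearson's r was 0.994 and Spearman's rho 0.976. The permutation test, 2-sided, gave p = 1e-05, the smallest that 100000 resamples can give, and p = 3e-05. No other pair of probe sets was tested in this way. Without pair-fed replicates 3 and 1, the farthest from the median, r was 0.987. The SD within groups of Slc25a30 was 1.09, against 0.148 for the median member and 0.33 for Slc25a25, the next in the family. Only 0.148% of all genes had a larger SD within groups.

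**Figure D2:**
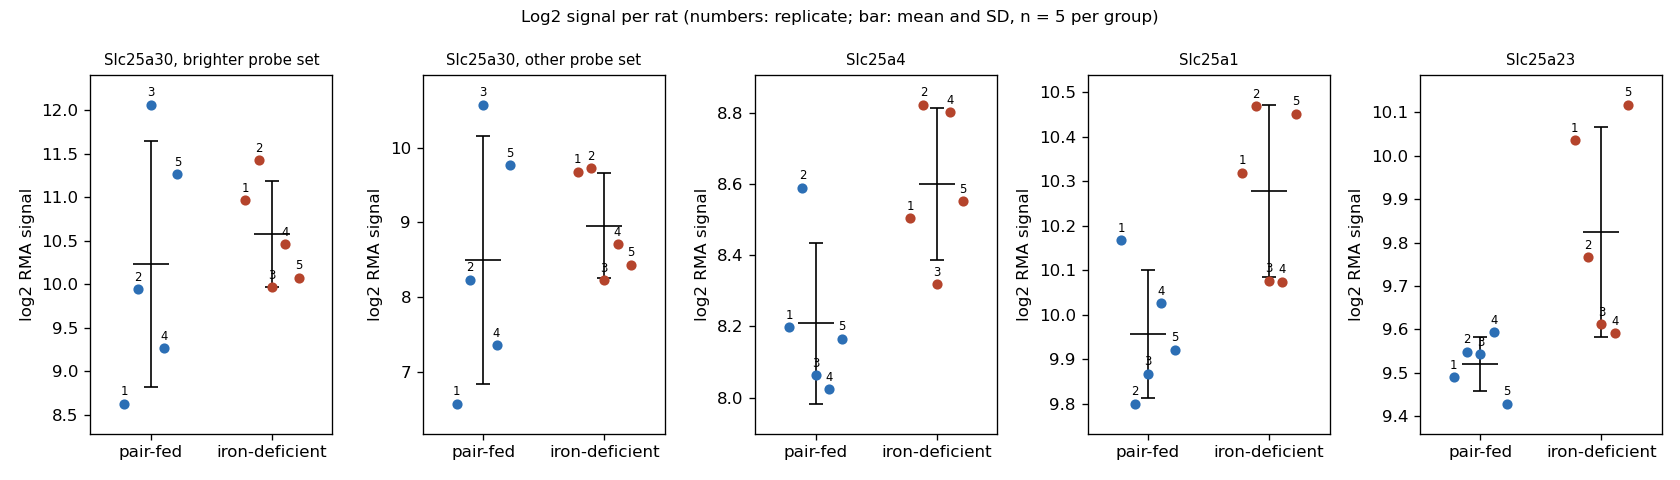
Log2 RMA signal of each rat (points, numbered by replicate) in the pair-fed and iron-deficient groups for both probe sets of Slc25a30 and for Slc25a4, Slc25a1 and Slc25a23, with the mean and SD of each group of 5 as bars and a separate vertical scale per panel. The pair-fed values of Slc25a30 run from 8.63 to 12.06 and enclose all iron-deficient values, while in Slc25a4, Slc25a1 and Slc25a23 the groups overlap only in part.

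The uncoupling proteins themselves did not pass. Ucp2, which is made in many tissues, had log2 signals of 8.11, 7.91, 7.93, 7.86 and 7.94 in the iron-deficient rats and 8.13, 7.97, 8.06, 8.05 and 7.93 in the pair-fed rats. The groups overlapped, with a difference of -0.08 (SE 0.0663, 95% interval -0.22 to 0.07). Macrophages, which can carry Ucp2, gave 0 of 10 marker genes called, and 9 of the 10 had lower means in the iron-deficient group, with a summed signal of 13.00 to 13.47 against 13.14 to 13.78. Their part in the Ucp2 value was not tested. Ucp1, the brown fat form, and Ucp3, the muscle form, had differences of 0.12 and -0.07. The signal of Ucp1 was dim, with a mean of 4.33 over all arrays. Of 9 adipocyte and muscle markers 0 were called, with a summed signal of 8.81 to 9.14 in the iron-deficient and 8.88 to 9.22 in the pair-fed rats. Slc25a14 and Slc25a27, brain-expressed relatives, were at -0.18 and 0.03, the former being the lowest difference among the members. Slc25a20 and Slc25a37, which the member rule left out, were lower still, at -0.22 and -0.34.

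Carriers of nucleotides and phosphate held 11 members, of which 4 were higher and 7 lower, with a median of -0.06, and none passed the rank products. Slc25a4, an ADP/ATP translocase known from heart and muscle, had the largest difference of the family when the brightest probe set stood for each gene. With the mean over probe sets Slc25a30 was at 0.40 and Slc25a4 at 0.39. Its log2 signals were 8.50, 8.82, 8.32, 8.80 and 8.55 in the iron-deficient rats and 8.20, 8.59, 8.06, 8.02 and 8.17 in the pair-fed rats. All iron-deficient rats lay above the pair-fed median, and pair-fed replicate 2 was the 1 control among their values.

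The mean of Slc25a4 was 8.60 ± 0.21 (SD, n = 5) against 8.21 ± 0.23 (SD, n = 5), a difference of 0.39 (SE 0.122, 95% interval 0.13 to 0.66) or 1.31-fold. The unadjusted p was 0.00711 and the adjusted p 0.603 in limma, and the exact permutation test, 2-sided, gave p = 0.0317. In the rank products its false discovery rate was 0.108. Pair-fed replicate 2 was the only control among the iron-deficient values, so the groups could not overlap without it. Slc25a4 then passed the rank products. Slc25a5, the ADP/ATP translocase of proliferating and liver cells, was at -0.06 (95% interval -0.18 to 0.06), so that the intervals of these translocases did not overlap, though the difference between them was not tested. Signals of Slc25a5, Slc25a39 and Slc25a3 are uncertain, since the RefSeq table lists 9, 8 and 2 pseudogenes of them that may share probes.

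Slc25a23, a calcium-regulated carrier that exchanges ATP-magnesium for phosphate, was higher at its brightest probe set. The iron-deficient rats had 10.04, 9.77, 9.61, 9.59 and 10.12 and the pair-fed rats 9.49, 9.55, 9.54, 9.59 and 9.43. Here 4 of 5 iron-deficient rats exceeded every pair-fed rat, and replicate 4 fell just short of the highest of them. The difference was 0.30 (SE 0.102, 95% interval 0.08 to 0.53), with an unadjusted p of 0.0112 and an adjusted p of 0.623 in limma and an exact permutation p = 0.0159, 2-sided. Its dimmer probe sets were at 0.13 and 0.07. With the mean over the probe sets of a gene, Slc25a23 was no longer at an unadjusted p under 0.05. Iron-deficient replicate 1, the array with the highest 3' minus 5' differences, held the second highest value, and without it Slc25a23 was still at an unadjusted p under 0.05.

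The closest relatives of Slc25a23 were at 0.03 for Slc25a24, 0.18 for Slc25a25 and -0.07 for Slc25a41. Slc25a25 had log2 signals of 10.92, 10.36, 10.49, 10.13 and 10.78 in the iron-deficient rats and of 10.31, 9.79, 10.45, 10.69 and 10.52 in the pair-fed rats. These overlapped widely, and the interval of its difference ran from -0.20 to 0.56.

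The phosphate carrier Slc25a3, which supplies phosphate for ATP synthesis, varied little and was slightly lower. It was at 12.46, 12.46, 12.45, 12.52 and 12.47 in the iron-deficient rats and at 12.50, 12.58, 12.48, 12.56 and 12.57 in the pair-fed rats. No iron-deficient rat reached the pair-fed median, with a difference of -0.07 (SE 0.0528). The exact permutation test, 2-sided, gave p = 0.0238, and limma gave an unadjusted p of 0.209. The peroxisomal carrier Slc25a17 had a difference of -0.09 (SE 0.0573), with an exact permutation p = 0.0476, 2-sided, and an unadjusted limma p of 0.145. Both genes were named after their values were seen to pass the exact test. Slc25a33 and Slc25a36, pyrimidine nucleotide carriers, were at -0.07 and -0.02, and Slc25a31, the ADP/ATP translocase of testis, at -0.10.

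Of 6 carboxylate and keto acid carriers 4 were higher and 2 lower, none passing the rank products, with a median of 0.02. Slc25a1 exports citrate from the mitochondria, from which the cytosol makes acetyl-CoA for fatty acid and sterol synthesis. Its log2 signals were 10.32, 10.47, 10.08, 10.07 and 10.45 in the iron-deficient rats and 10.17, 9.80, 9.87, 10.03 and 9.92 in the pair-fed rats. In 3 iron-deficient rats it exceeded all controls, and the remaining pair lay below pair-fed replicate 1.

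The mean of Slc25a1 was 10.28 ± 0.19 (SD, n = 5) in the iron-deficient rats and 9.96 ± 0.14 (SD, n = 5) in their controls, so that they differed by 0.32 (SE 0.0998, 95% interval 0.10 to 0.54) or 1.25-fold. The unadjusted p was 0.00703 and the adjusted p 0.601 in limma, with an exact permutation p = 0.0317, 2-sided, and a false discovery rate of 0.301 from the rank products. Slc25a1, Slc25a4 and Slc25a23 were each at an unadjusted p under 0.05 each of the 10 times that 1 array was dropped. Their differences were then 0.27 to 0.37, 0.34 to 0.49 and 0.23 to 0.36. These genes were picked by their limma p over the same arrays, so this describes the dependence on single rats and adds no support. The share of all genes that stay under 0.05 in this way was not computed.

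Slc25a10, the dicarboxylate carrier that exchanges malate and succinate for phosphate, had 11.34, 10.80, 11.05, 10.73 and 11.14 in the iron-deficient rats against 11.00, 11.10, 11.20, 11.37 and 10.99. The groups overlapped, with differences of -0.12 (SE 0.116) and 0.01 at its probe sets. The oxoglutarate-malate carrier Slc25a11 was at -0.07 and the oxodicarboxylate carrier Slc25a21 at 0.31. In Slc25a21 iron-deficient replicates 2 and 5 had 7.71 and 7.52, above every pair-fed rat (6.67 to 7.09), while the other iron-deficient rats had 6.95 to 7.08, and the interval of the difference ran from -0.01 to 0.62. Slc25a34 and Slc25a35 were both dim, with differences of 0.03 and 0.01.

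No promoter sequence was available for Slc25a30, the member that passed the rank products. Slc25a1, Slc25a4 and Slc25a23 had the lowest limma p among the members. The 250 bases before their RefSeq start sites are therefore shown, 5′ to 3′ on the strand of the gene in the rat assembly GRCr8. The sequences are those of chr11:96559804-96560053 (+) for Slc25a1, chr16:52805271-52805520 (+) for Slc25a4 and chr9:1985366-1985615 (-) for Slc25a23. Capitals mark matches, on either strand, to any of 6 motifs, which were searched without allowing a mismatch. They were the TATA box with the letters TATAAA, the inverted or direct CCAAT box, the GC box written GGGCGG, the E-box written CACGTG, the nuclear receptor half-site written AGGTCA and the forkhead core written TGTTTAC.
Slc25a1: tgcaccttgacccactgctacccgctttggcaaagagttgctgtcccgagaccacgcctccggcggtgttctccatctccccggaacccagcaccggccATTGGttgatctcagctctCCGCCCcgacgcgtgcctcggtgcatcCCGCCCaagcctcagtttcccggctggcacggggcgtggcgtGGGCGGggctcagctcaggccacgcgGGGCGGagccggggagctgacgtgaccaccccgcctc
Slc25a4: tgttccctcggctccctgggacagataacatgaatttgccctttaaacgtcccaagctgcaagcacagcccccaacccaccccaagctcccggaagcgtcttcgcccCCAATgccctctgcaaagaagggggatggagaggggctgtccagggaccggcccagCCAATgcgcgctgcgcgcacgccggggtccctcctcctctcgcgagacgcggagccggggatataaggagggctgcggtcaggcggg
Slc25a23: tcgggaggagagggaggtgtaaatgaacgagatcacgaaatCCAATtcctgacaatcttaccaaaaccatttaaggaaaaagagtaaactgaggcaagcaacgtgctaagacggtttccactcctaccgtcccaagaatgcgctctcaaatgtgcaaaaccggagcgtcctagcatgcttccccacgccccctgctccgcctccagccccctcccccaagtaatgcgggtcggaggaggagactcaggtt

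The Slc25a1 sequence held 4 GC boxes and 1 CCAAT box, that of Slc25a4 2 CCAAT boxes and that of Slc25a23 1 CCAAT box. No TATAAA, E-box, half-site or forkhead match lay in these windows. A CCAAT box was found in 34.0% and a GC box in 30.5% of 33469 promoter windows of this length, and in 19 and 20 of the 36 member genes with a window. The half-site was found in 14.1% of all windows, TATAAA in 12.9%, the E-box in 5.59% and the forkhead core in 3.21%. The G and C content was 69.6%, 65.6% and 53.2%, against a median of 51.2%. A match of letters is a description and no evidence of binding.

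Of the 8 amino acid carriers 7 were higher and 1 lower, with a median of 0.06, and none passed. Slc25a13, or citrin, the liver form of the aspartate-glutamate carrier in the malate-aspartate shuttle, was at 12.62, 12.33, 12.64, 12.60 and 12.52 in the iron-deficient rats. The pair-fed rats had 12.52, 12.51, 12.52, 12.53 and 12.54. Its mean differed by 0.02 (95% interval -0.13 to 0.16), while the SD was 0.125 (n = 5) in the iron-deficient and 0.0115 (n = 5) in the pair-fed group. At the other probe set of Slc25a13 the difference was 0.01, with an SD of 0.185 (n = 5) in the iron-deficient and 0.109 (n = 5) in the pair-fed rats. Slc25a12, the form of muscle and brain, was at -0.12.

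Slc25a15, the ornithine carrier of the urea cycle, is covered by 6 probe sets, which did not all have the same rats highest and lowest. At the brightest (1374800_at) the iron-deficient rats had 12.46, 12.43, 12.86, 12.70 and 12.46 and the pair-fed rats 12.54, 12.56, 12.57, 12.50 and 12.30. The groups overlapped, with a difference of 0.09 (SE 0.094, 95% interval -0.12 to 0.29).

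At a dimmer probe set of Slc25a15 (1393342_at) the iron-deficient rats had 11.18, 11.66, 12.29, 11.26 and 11.67 and the pair-fed rats 11.11, 11.88, 10.16, 11.81 and 11.72. Pair-fed replicate 3 was the lowest there, and likewise at 1393947_at (10.77) and 1397647_at (10.23), but it was the highest of all 10 rats at 1381124_at (11.76). Iron-deficient replicate 3 was the highest at the same 3 probe sets (12.29, 12.55 and 12.00), and also at the brightest (1374800_at, 12.86). The differences at 1393342_at, 1393947_at, 1397647_at and 1381124_at were 0.27, 0.24, 0.08 and 0.05, and 0.04 at the dim probe set. Pair-fed replicate 3 was also the rat with the highest Slc25a30.

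**Figure D3:**
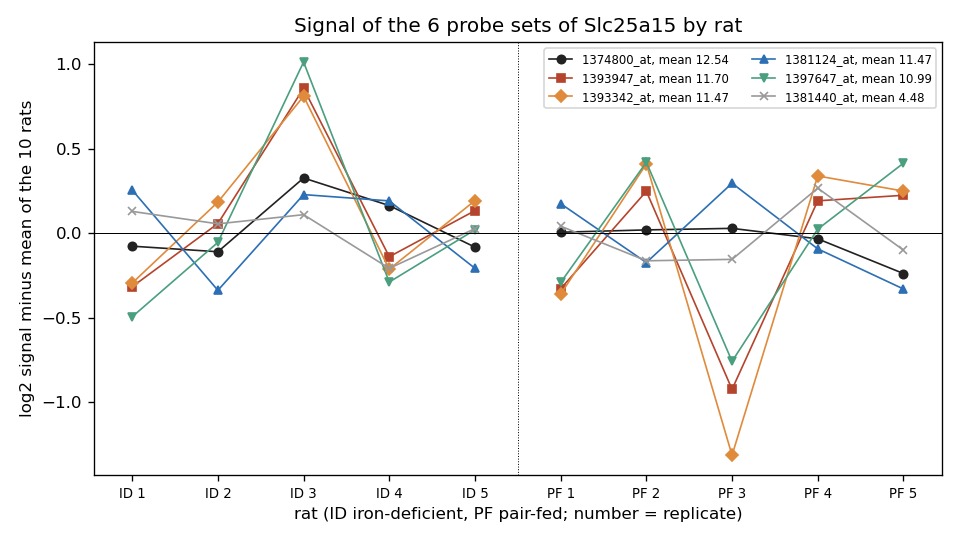
Log2 signal of the 6 probe sets of Slc25a15 in each rat, minus the mean of the probe set over the 10 rats, with iron-deficient rats (ID) on the left and pair-fed rats (PF) on the right; lines only join the points of a probe set, since the rats have no order. In pair-fed replicate 3 the signal was low at 1393342_at, 1393947_at and 1397647_at and high at 1381124_at.

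Slc25a38 imports glycine for the first step of heme synthesis. It had 8.21, 8.19, 8.21, 8.20 and 8.28 in the iron-deficient rats and 8.19, 8.22, 8.16, 8.19 and 8.16 in the pair-fed rats. The difference was 0.03 (SE 0.0519, 95% interval -0.08 to 0.15), next to red cell precursor markers with a median of -0.35. The glutamate carriers Slc25a22 and Slc25a18 were at 0.13 and 0.08, Slc25a29, a carrier of basic amino acids, at 0.03, and Slc25a44, a carrier of branched-chain amino acids, at 0.16.

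Among 5 carriers of cofactors, glutathione and metals, 2 were higher and 3 lower, with a median of -0.01, and none passed. Slc25a28 is mitoferrin 2, the mitochondrial iron importer of cells outside the red cell lineage. It had log2 signals of 8.17, 8.64, 8.05, 8.57 and 8.46 in the iron-deficient rats and 8.41, 8.34, 8.35, 8.36 and 8.28 in the pair-fed rats. The iron-deficient values lay on both sides of the controls, with 3 rats above and 2 below all of them. The difference was 0.03 (SE 0.106, 95% interval -0.20 to 0.26), with an SD of 0.257 (n = 5) against 0.0477 (n = 5). Without iron-deficient replicate 2 the difference was -0.03, and without replicate 3 it was 0.11.

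Slc25a39, which carries glutathione into mitochondria, had 10.78, 10.66, 10.76, 10.74 and 10.75 in the iron-deficient rats against 10.69, 10.89, 10.75, 10.96 and 10.75. The groups overlapped, with a difference of -0.07 (SE 0.0655). At its dim probe set (1381765_at) 4 of the iron-deficient rats were below all controls, with a difference of -0.12 (SE 0.0578, exact permutation p = 0.0159, 2-sided). With the mean over both probe sets, the groups of Slc25a39 did not overlap. Slc25a16 was at 0.07, Slc25a42, a coenzyme A carrier, at -0.01, and Slc25a32, a carrier of folate or FAD, at -0.08 and -0.26 at its probe sets. Iron-deficient replicate 3 was the highest of the 10 rats at the brighter probe set of Slc25a32 (7.90), and pair-fed replicate 5 at the dimmer one.

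The remaining 5 members, most with unsettled substrates, had 2 higher and 3 lower means. Slc25a48 was at 0.20, Slc25a51l1 at 0.11, Slc25a45 at -0.02, Slc25a46 at -0.01 and Slc25a53 at -0.02, and none passed. Slc25a51l1 is in no role list and was counted here. It may share probes with Slc25a51, whose 2 probe sets are paired with 2 gene entries and were left out.

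The spread between the iron-deficient rats was larger than between the pair-fed rats in 26 of 41 members (63.4%), and in 65.3% of all genes. The median SD of the members was 0.152 in the iron-deficient and 0.117 in the pair-fed group, against 0.139 and 0.109 over all genes. Slc25a30 was among the 15 members with the larger SD in the pair-fed group.

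**Figure D4:**
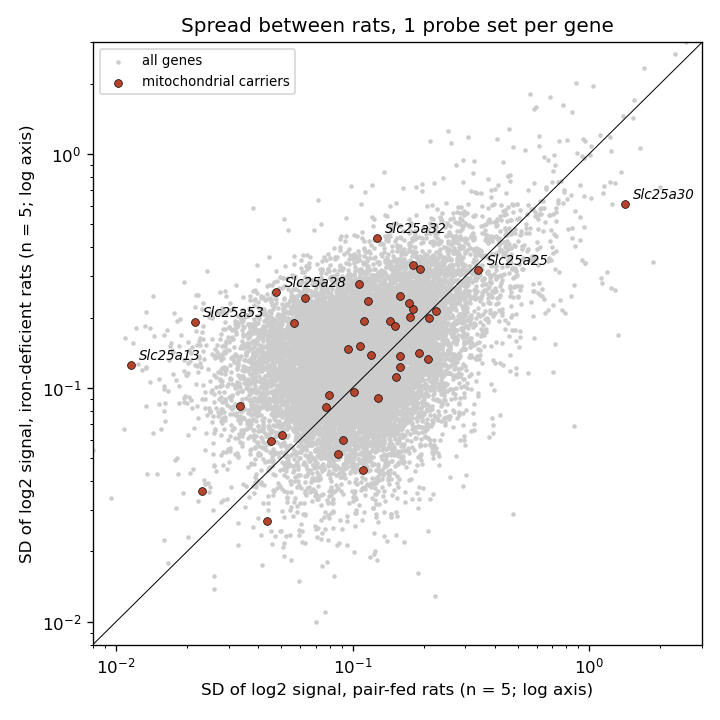
SD of the log2 signal over the 5 iron-deficient rats (vertical, log axis) against that over the 5 pair-fed rats (horizontal, log axis), for all genes in grey and the 41 carriers in red, with the line of equal SD. Most carriers lie within the cloud of all genes and 26 lie above the line, while Slc25a30 is far to the right at 1.41 and 0.61.

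Of 21 measured genes for other transport proteins of the mitochondrial membranes 0 passed the rank products in either direction. Means were lower in 16 and higher in 5, with a median of -0.06. At an unadjusted limma p under 0.05 there were 5, all lower except Mcu. Over all genes the shares were 4.94% lower and 2.9% higher. Slc25a37, the mitoferrin of red cell precursors, was at -0.34 (SE 0.0935). Cpt1a, which commits fatty acids to the mitochondria, was at -0.35 (SE 0.123), and the carnitine-acylcarnitine carrier Slc25a20 at -0.22 (SE 0.0879). Mpc2, a subunit of the pyruvate carrier, was at -0.21 (SE 0.0687), and its partner Mpc1 was at 0.09. Mcu, the pore of the calcium uniporter, was at 0.26 (SE 0.105). Of the red cell precursor markers 5 of 11 were down-regulated, and their part in the Slc25a37 value was not tested. The genes of this list and of the next were named after their values were seen, since none passed the rank products.

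Of 24 enzymes of the shuttles that the carriers serve, 0 passed the rank products and 0 were at an unadjusted limma p under 0.05, with 18 higher, 6 lower and a median of 0.06. Acly, which splits the citrate exported by Slc25a1, was at 0.22 (SE 0.131), and Me1, which makes pyruvate and NADPH from malate, at 0.25 (SE 0.190). Pck1, with the largest difference of the list, was at 0.39 (SE 0.254). Otc, which uses the ornithine brought in by Slc25a15, was at 0.14 (SE 0.0702). Got1, Got2, Mdh1 and Mdh2 of the malate-aspartate shuttle were at 0.21 (SE 0.158), 0.03, -0.05 and -0.04. Among the 6 lower enzymes were Gpd2, with the lowest difference of the list at -0.14 (SE 0.191), and Idh2 at -0.14 (SE 0.0736).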

How the data were processed

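Arrays were quantified by the authors with RMA in R and Bioconductor, and the deposited values are log2 signals, with 1 array per rat. All 10 columns were used and 0 left out. The source field of the control samples names the iron-deficient diet, and groups were taken from the titles. The tests ran on 31042 probe sets, without 57 of controls. Symbols were those of the platform annotation, and 41 of 41 members had the same symbol in RefSeq GRCr8, which was otherwise used for names and promoter sequences. Of 56 protein-coding genes of the family there, 13 had no probe set paired with 1 gene and were not analysed here. Since RMA gives no detection call, dim means below the median probe set (6.21), as in 8 members.

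Rank products over the 25 pairs of arrays used 100 permutations, as the study's methods name this test. limma 3.58.1 in R 4.3.3 was fitted over all probe sets, with Benjamini-Hochberg adjustment. Exact permutation tests were 2-sided and cannot go below p = 0.00794. Python 3.11.15, numpy 2.4.6, pandas 2.3.3, scipy 1.17.1 and matplotlib 3.10.9 were used. Rank products and limma were also run on simulated data, with added shifts larger than any difference of the members. That run does not show how well differences of the size reported here are found, and it left out the exact test.

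Members, lists and named genes were chosen with earlier results of these data known. Values per rat are given for members past either test and for carriers of liver, iron and heme metabolism, of which Slc25a47 had no probe set paired with it. The number of arrays limits the precision. Same-numbered arrays were not paired (correlations of their deviations from -0.04 to 0.09). Alternatives were another test, the rank sum, dim probe sets left out, array medians subtracted, the mean over probe sets, a replicate block and leaving out each array.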

Additional observations from a re-analysis of the deposited data

Results flagged for a closer look

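In 5 of the 82 groups of 5 rats examined (41 members in each diet group), the highest or lowest rat stood apart from the other 4 by more than Dixon's limit for 5 values. Chance gives about 1 in 20 such groups. In the iron-deficient group these were replicate 2 of Slc25a27 (4.80), replicate 5 of Slc25a38 (8.28) and replicate 2 of Slc25a39 (10.66). In the pair-fed group they were replicate 5 of Slc25a15 (12.30) and of Slc25a31 (4.28). Slc25a27 and Slc25a31 are dim.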

How the results depend on the processing

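The count of up-regulated members was 1 with dim probe sets left out, with array medians subtracted, with the mean over probe sets and with the replicate block, Slc25a30 in each. It was 0 with the rank sum and 0 with limma's adjusted p. Leaving out 1 array gave 0 to 1, with Slc25a4 in place of Slc25a30 without pair-fed replicate 2, and no member was down-regulated in any setting run. The replicate block gave 4 members at an unadjusted limma p under 0.05, against 3, by adding Slc25a21. The count was 3 to 5 with 1 array left out, and 5 without iron-deficient replicate 3 or 4 or pair-fed replicate 4. Members with groups that did not overlap numbered 1 (Slc25a39) with the mean over probe sets and 0 to 2 with 1 array left out (2 without iron-deficient replicate 3 or 4). For these settings the shares of all genes at that limma p or without overlap were not computed. With fewer arrays a lack of overlap is also more likely, so these counts are a description only. The median difference was -0.0015 to 0.027 with 1 array left out, lowest without iron-deficient replicate 1. Differences of Slc25a13 ran from -0.0052 to 0.071, of Slc25a28 from -0.035 to 0.113 and of Slc25a30 from -0.056 to 0.802. Among the other transport proteins 0 to 1 was down-regulated (Cpt1a, without iron-deficient replicate 3). Over all 31042 probe sets, the up-regulated and down-regulated counts were 94 and 178. They were 4 and 30 with the rank sum, and 47 to 95 and 91 to 188 with 1 array left out. With dim probe sets left out they were 55 and 109, out of only the probe sets at or above the median. With the mean over probe sets they were 57 and 109, out of 14217 genes. Because fewer features were tested there, these counts are not to be set directly beside 94 and 178. The cause of the other changes was not tested.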
